A study of Rattus norvegicus with 6 samples.

Results

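The dual-specificity MAP kinase phosphatases studied here were 10 genes, Dusp1, Dusp2, Dusp4, Dusp5, Dusp6, Dusp7, Dusp8, Dusp10, Dusp14 and Dusp16, of 29489 transcript clusters (probe groups that usually stand for a gene) on the Affymetrix Rat Gene 2.0 ST array. A cluster was taken for a gene when its symbol was that gene alone, and the brightest cluster was read where there were several. All 10 genes had such a cluster, and only Dusp14 had 2 of them. The noise group was female Sprague-Dawley (SD) rats of postnatal day 21 that received white noise of 2 to 20 kHz at 115 dB SPL for 4 h per day on 3 days, and the control group was rats of the same strain, sex and age that stayed in an identical chamber without this noise. Rats of both groups then had their hearing tested under anesthesia with Zoletil and xylazine, and by the study's methods the hippocampi were taken 6 to 8 hours later, whereas the labels place the harvest right after the last exposure. Each group had 3 arrays (noise 2, 3 and 4; control 1, 2 and 6), each with hippocampal tissue pooled from 2 rats, so that the spread between arrays is the spread between pools. The methods describe dissection of the dorsal CA3 region, and the labels say only hippocampus. The genes were chosen by a rule that used these same log2 values of the noise and control arrays, with the difference between the groups already known. The values of the 10 genes are therefore a description, without p-values for single members.

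MAP kinases (ERK, JNK and the p38 kinases) carry signals from receptors, synaptic activity and cellular stress to the nucleus, and they are active when a threonine and a tyrosine of their activation loop are both phosphorylated. Dual-specificity phosphatases remove both phosphates and so end the signal. Several of them are themselves switched on by the pathway they stop, which makes them a negative feedback. Dusp1, Dusp2, Dusp4 and Dusp5 are the nuclear, inducible members, Dusp6 and Dusp7 are cytosolic and prefer ERK, Dusp8, Dusp10 and Dusp16 prefer JNK and p38, and Dusp14 is a small atypical member that lacks the kinase-docking domain of the others. In neurons Dusp1 is an immediate early gene, and it is also induced by glucocorticoid hormones.

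Promoter windows of 250 bases before to 50 bases after the annotated start were taken from the RefSeq table of build GRCr8, which holds 9 of the 10 genes (not Dusp4). These windows are shown for Dusp1 and Dusp10, the genes with the largest differences between the groups, for Dusp5, which has another motif, and for Dusp6, the gene that was lower on the noise arrays. Capitals mark matches on either strand. The motifs searched were the cyclic AMP response element (CRE) TGACGTCA, the short CRE site TGACG, which also lies within the full element, the AP-1 site TGANTCA, the E-box CACGTG, the box TATAAA and the CArG box of serum response factor.
Dusp1 (chr10:17184603-17184902, plus strand): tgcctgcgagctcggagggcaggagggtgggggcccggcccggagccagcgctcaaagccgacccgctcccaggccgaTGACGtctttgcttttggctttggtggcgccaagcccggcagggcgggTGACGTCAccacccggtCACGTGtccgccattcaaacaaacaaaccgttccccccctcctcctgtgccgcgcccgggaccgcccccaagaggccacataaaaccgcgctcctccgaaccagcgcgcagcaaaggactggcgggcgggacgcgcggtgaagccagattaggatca
Dusp10 (chr13:98145643-98145942, plus strand): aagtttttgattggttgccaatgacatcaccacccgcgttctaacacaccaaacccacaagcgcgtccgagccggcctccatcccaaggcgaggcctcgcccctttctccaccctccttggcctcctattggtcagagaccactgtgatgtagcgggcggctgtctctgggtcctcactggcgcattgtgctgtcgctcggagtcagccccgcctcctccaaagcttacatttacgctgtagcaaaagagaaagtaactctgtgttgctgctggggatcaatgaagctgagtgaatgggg
Dusp5 (chr1:262543524-262543823, plus strand): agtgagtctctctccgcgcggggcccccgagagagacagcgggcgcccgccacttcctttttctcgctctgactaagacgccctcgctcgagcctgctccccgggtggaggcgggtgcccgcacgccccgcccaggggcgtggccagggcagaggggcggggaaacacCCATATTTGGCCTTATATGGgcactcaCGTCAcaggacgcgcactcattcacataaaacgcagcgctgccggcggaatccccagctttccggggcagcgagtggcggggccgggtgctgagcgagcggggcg
Dusp6 (chr7:35979354-35979653, plus strand): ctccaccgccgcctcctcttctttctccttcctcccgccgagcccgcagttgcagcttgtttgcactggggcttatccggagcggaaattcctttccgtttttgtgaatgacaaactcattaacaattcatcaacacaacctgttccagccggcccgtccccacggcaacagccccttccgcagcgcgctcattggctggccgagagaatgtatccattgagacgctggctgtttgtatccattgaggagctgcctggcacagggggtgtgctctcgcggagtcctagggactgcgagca
Positions are counted in bases from the annotated start, negative before it. The Dusp1 window held 1 full CRE at -124, a further short CRE site at -172 and an E-box at -107. The full CRE was found in 1 of the 9 windows, that of Dusp1, and in 1.83% of 33469 rat promoters of the same length. The short site was in 4 of the 9 windows (Dusp1, Dusp2, Dusp5 and Dusp16) and in 21.2% of all promoters. Dusp5 held 2 adjoining CArG boxes, at -82 and -72, and a short CRE site at -55. A CArG box was in 1.64% of all promoters. An E-box was found in Dusp1 and Dusp2 and in 6.42% of all promoters. No searched motif was found in the windows of Dusp6, Dusp7, Dusp8 and Dusp10, and Dusp14 had only a TATAAA match, on the opposite strand. This box was on either strand of 14.2% of all promoters. No window held the AP-1 site, which was in 7.33% of all promoters. The guanine and cytosine content of the 9 windows was 53.7% to 81.0%, against a median of 51.7% for all promoters. A match of letters is a description and shows no bound factor.

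Among the 10 genes, Dusp1 had the largest difference between noise and control arrays, Dusp10 came next, and the other genes lay between -0.17 and 0.22. Differences are given as noise minus control on the log2 scale, with the standard error of limma, a linear model fitted over all 29489 clusters. The difference was positive for 9 genes and negative for Dusp6. The median over the 10 genes was 0.17, against 0.01 over all clusters. Without Dusp1, differences ranged from -0.17 (Dusp6) to 0.41 (Dusp10). On every noise array the level lay above every control array for 4 genes (Dusp1, Dusp4, Dusp5 and Dusp10), which happened for 8.45% of all clusters. Dusp6 was the only gene with every noise array below every control array, as were 8.06% of all clusters. The groups overlapped for Dusp2, Dusp7, Dusp8, Dusp14 and Dusp16. The study set 2 thresholds, a p no larger than 0.05 before adjustment and a change of 1.5-fold or more. In the limma fit 1 of the 10 genes (Dusp1) was higher and none was lower at these thresholds, beside 0.58% of all clusters that were higher and 0.882% that were lower. With the methods' t-test the counts were also 1 and 0, beside 0.339% and 0.512% of all clusters. With limma at an unadjusted p under 0.05 alone 2 genes were higher (Dusp1, Dusp10) and 0 lower, beside 5.03% and 5.1% of all clusters. At an adjusted p under 0.05 from limma there were 0 of the 10 genes, beside 0.00678% of all clusters that were higher and 0.00339% that were lower. That count was 1 (Dusp1) with a robust variance that follows the signal level and also when only the brighter clusters were tested. Of all 29489 clusters, 10 were higher and 2 lower with the robust variance. Of the 14744 brighter clusters, 8 were higher and 3 lower. Since the genes were chosen with this contrast known, these counts are given beside those for all clusters and nothing is read from them.

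**Figure D1:**
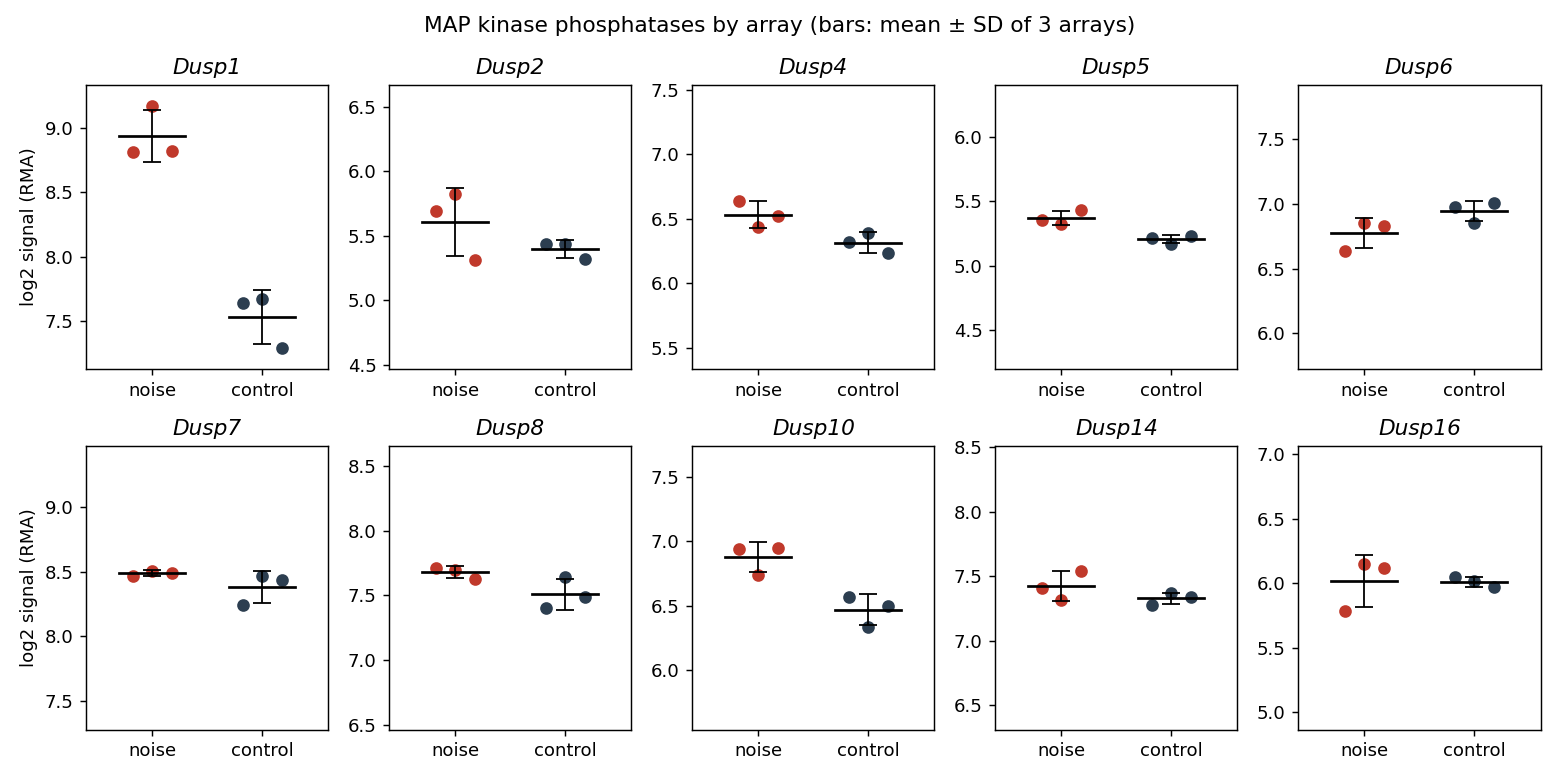
The log2 signal of each of the 10 phosphatases on the 3 noise arrays (red, order 2, 3, 4) and the 3 control arrays (dark, order 1, 2, 6), with the mean and SD of each group as lines, in panels that all span the same number of log2 units. Dusp1 stands apart with noise arrays at 8.81 to 9.17 and control arrays at 7.29 to 7.67, and the other panels show differences of at most 0.41.

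The nuclear phosphatases were led by Dusp1. Dusp1, which dephosphorylates JNK, p38 and ERK, was at 8.81, 9.17 and 8.82 on noise arrays 2, 3 and 4, against 7.64, 7.67 and 7.29 on control arrays 1, 2 and 6. The lowest noise array was 1.14 above the highest control array, a gap larger than the range within the noise group (0.36) or the control group (0.38). The log2 difference was 1.40 (standard error 0.15), a 2.64-fold signal. It was between 1.28 and 1.47 when each array was left out in turn. Of all clusters, 0.0814% had an absolute difference of at least this size.

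Dusp4, a nuclear phosphatase of ERK and JNK, was at 6.64, 6.43 and 6.52 on the noise arrays, against 6.32, 6.39 and 6.23 on the control arrays. The groups were separate, but only by 0.04 between noise array 3 and control array 2. The log2 difference was 0.22 (standard error 0.10). Dusp5, a nuclear phosphatase that is specific for ERK and whose window carries the CArG boxes, was at 5.36, 5.33 and 5.43 on the noise arrays, against 5.22, 5.17 and 5.23 on the control arrays. These arrays were tightly grouped, with an SD of 0.05 in the noise group and 0.03 in the control group (n = 3 each), and the groups were 0.09 apart. Its log2 difference was 0.16 (standard error 0.09), and its values lay close to the array median of 5.05. Dusp2, known best from activated immune cells, was at 5.69, 5.82 and 5.31 on the noise arrays, against 5.44, 5.44 and 5.32 on the control arrays. Noise array 4 was as low as the lowest control array, and the noise group had an SD of 0.26 against 0.07 in the control group. The log2 difference was 0.21 (standard error 0.14), or 0.36 without noise array 4 and 0.10 without noise array 3. All 4 nuclear members had positive differences, as did 51.3% of all clusters, and in 3 of them every noise array was above every control array, as in 8.45% of all clusters.

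The 2 cytosolic phosphatases lay on different sides of 0. Dusp6, which is specific for ERK and often used as a readout of ERK activity, was at 6.64, 6.85 and 6.83 on the noise arrays, against 6.97, 6.86 and 7.01 on the control arrays. The groups nearly touched, since noise array 3 minus control array 2 was -0.00455, and noise array 2 was the lowest of the 6. The log2 difference was -0.17 (standard error 0.10), and -0.10 without noise array 2. Dusp7, its close relative, was at 8.47, 8.51 and 8.50 on the noise arrays, against 8.25, 8.47 and 8.44 on the control arrays. Noise arrays were nearly alike (SD 0.02), and control array 1 was lower than the other 5 arrays. The log2 difference was 0.11 (standard error 0.10), and 0.04 without control array 1.

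**Figure D2:**
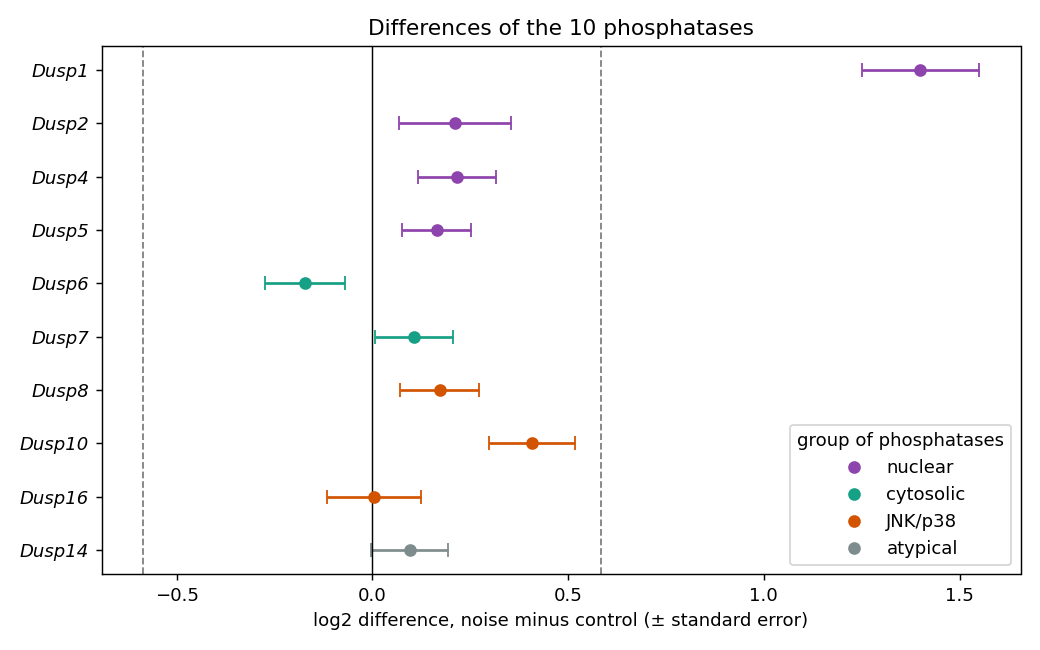
The log2 difference, noise minus control, of each phosphatase (points) with its standard error from limma (bars), coloured by group of phosphatases, with dashed lines at the fold threshold of 1.5. Dusp1 at 1.40 lies beyond the dashed line, and the other 9 genes lie between -0.17 and 0.41.

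Among the phosphatases that prefer JNK and p38, Dusp10 had the largest difference. It was at 6.94, 6.74 and 6.94 on the noise arrays, against 6.57, 6.34 and 6.50 on the control arrays. The groups were separate by 0.17, and noise array 3, the highest for Dusp1, was the lowest of the noise arrays here. The log2 difference was 0.41 (standard error 0.11), a 1.33-fold signal, and 0.34 to 0.47 when each array was left out in turn. Dusp8, which is abundant in brain, was at 7.72, 7.70 and 7.63 on the noise arrays, against 7.40, 7.64 and 7.48 on the control arrays. Noise array 4 and control array 2 overlapped by 0.01, and the log2 difference was 0.17 (standard error 0.10). Dusp16, a phosphatase of JNK, was at 5.78, 6.15 and 6.12 on the noise arrays, against 6.05, 6.02 and 5.97 on the control arrays. Noise array 2 was the lowest and noise arrays 3 and 4 the highest of the 6, so that the noise arrays surrounded the control arrays. The mean difference was 0.00 (standard error 0.12), and it was 0.12 without noise array 2 and -0.06 without noise array 3.

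Dusp14, the atypical member, was at 7.41, 7.32 and 7.54 on the noise arrays, against 7.28, 7.37 and 7.34 on the control arrays, with a log2 difference of 0.10 (standard error 0.10). The groups overlapped, and the difference was 0.04 without noise array 4 and 0.15 without noise array 3. A dimmer cluster with the same symbol had values of 4.95, 4.91 and 4.69 on the noise arrays, against 4.99, 5.15 and 5.11 on the control arrays. There the noise arrays lay below the control arrays, with a log2 difference of -0.23 (standard error 0.11), so the 2 clusters of Dusp14 differed in sign.

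The arrays of a group did not order the members alike. Noise array 3 was the highest noise array for 5 genes (Dusp1, Dusp2, Dusp6, Dusp7 and Dusp16) and the lowest for 4 (Dusp4, Dusp5, Dusp10 and Dusp14). Control array 2 was the highest control array for 6 genes and the lowest for 3. The SD was larger in the noise group for 6 genes and in the control group for 4, and it lay between 0.02 and 0.26 in the noise group and between 0.03 and 0.21 in the control group (n = 3 each). Leaving out single arrays moved genes across the line of overlap: without noise array 4 the noise arrays were above the control arrays for 6 genes (also Dusp2 and Dusp8), beside 15.9% of all clusters in the same arrays. Without control array 2 this held for 6 genes (also Dusp7 and Dusp8), beside 13.1% of all clusters, and without noise array 2 for 6 (also Dusp7 and Dusp16), beside 13.1%. Fewer arrays separate more easily for any cluster, and nothing is read from these counts.

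Of 17 other dual-specificity phosphatases measured (19 were listed), none passed the study's thresholds in either direction (limma or the methods' t-test). At an unadjusted p under 0.05 from limma 1 was higher (Dusp21, 0.25) and 1 was lower (Dusp11). The median difference of the list was 0.01. Levels of Dusp21, between 1.92 and 2.41 over the arrays, were far below the array median of 5.05. Dusp9, the remaining cytosolic phosphatase of ERK, was at 5.15, 5.40 and 5.28 on the noise arrays, against 5.31, 5.05 and 5.26 on the control arrays, and the groups overlapped (difference 0.07, standard error 0.12). Dusp11, a phosphatase of RNA rather than of MAP kinases, had a log2 difference of -0.37 (standard error 0.15, adjusted p = 0.48 from limma). It was -0.21 without control array 6, and without control arrays 1 and 2 it was -0.67 and passed the thresholds. Styxl1, a catalytically inactive relative, had -0.27 (adjusted p = 0.56 from limma), and -0.16 without control array 1 or noise array 2. Its levels, between 3.94 and 4.67, were also below the array median. Among 9 other phosphatases that act on MAP kinases none passed, with limma or the methods' t-test and also at an unadjusted p under 0.05 from limma. Ptpn5, the striatum-enriched tyrosine phosphatase STEP, which acts on ERK and p38 in neurons, had the largest difference there, 0.21 (standard error 0.10, adjusted p = 0.52 from limma), and was above the controls on every noise array. Ptpn7, a tyrosine phosphatase of ERK and p38 known from blood cells, had 0.11 (standard error 0.12, adjusted p = 0.80 from limma) with overlapping groups, and 0.04 without control array 2.

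The kinases and scaffolds of the pathway also stayed below the thresholds. Of 14 MAP kinases, 6 MAP kinase kinases, 22 MAP kinase kinase kinases, 11 scaffolds and 11 downstream kinases, none was higher or lower with limma or the methods' t-test. At an unadjusted p under 0.05 from limma, none of these was higher and 2 were lower, Map3k2 and Rps6ka6. Rps6ka6, a ribosomal S6 kinase, had a log2 difference of -0.40 (standard error 0.14, adjusted p = 0.42 from limma), and its levels, between 4.08 and 4.80 over the arrays, were below the array median. Map3k2, which activates MAP kinase kinases, had -0.27 (adjusted p = 0.47 from limma). Mapk6 (ERK3, 0.26), Mapk4 (-0.22), Map3k8 (0.24), Mknk1 (0.22), Mapk8ip1 (0.13), Arrb2 (-0.11), Map2k4 (0.11) and Map2k2 (0.11) were the other largest differences of their lists, none past the thresholds. Each of these 8 moved by over 1.5 times when a single array was left out, for example Mapk6 to 0.11 without control array 6 and Arrb2 to -0.01 without noise array 3. List medians were 0.00 for MAP kinases, 0.08 for MAP kinase kinases, -0.02 for MAP kinase kinase kinases, 0.01 for scaffolds and 0.07 for downstream kinases.

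Other feedback inhibitors and the transcription factors at the end of the pathway are set beside the phosphatases in the plot of pathway lists. Of 7 Sprouty and Spred genes, which block signaling from receptors to ERK, none passed the thresholds with limma or the methods' t-test, and at an unadjusted p under 0.05 from limma 1 was higher (Spry1) and 2 were lower (Spry2 and Spry3). Spry2 was at 7.30, 7.63 and 7.74 on the noise arrays, against 8.09, 8.14 and 8.17 on the control arrays. Every noise array was lower, and the difference of -0.58 (standard error 0.13, adjusted p = 0.33 from limma) was just under the fold threshold. It passed the thresholds at -0.60 without control array 1, at -0.62 without noise array 3 and at -0.67 without noise array 4. Without noise array 2, the lowest of the 6, it was -0.45. Spry1 had a difference of 0.47 (standard error 0.17, adjusted p = 0.45 from limma) with overlapping groups, and without noise array 4 it passed the thresholds, at 0.60, whereas it was 0.31 without noise array 3. Of 25 transcription factors fed by MAP kinases, 2 were higher at the thresholds and none was lower, also with the methods' t-test, and at an unadjusted p under 0.05 from limma 6 were higher and 3 were lower (Egr4, Elk3 and Mef2a). Fos, an immediate early subunit of AP-1, was at 6.81, 6.94 and 7.14 on the noise arrays, against 5.55, 5.04 and 5.28 on the control arrays. It was 3.19-fold higher (log2 difference 1.67, standard error 0.16, adjusted p = 0.0501 from limma). Egr1, an immediate early zinc finger factor, was at 8.42, 8.86 and 8.66 on the noise arrays, against 7.91, 7.97 and 8.23 on the control arrays, with a log2 difference of 0.61 and a standard error of 0.14 (limma, adjusted p = 0.35). Both genes had every noise array above every control array. Egr1 no longer passed the thresholds when control array 1 (0.54), control array 2 (0.58) or noise array 3 (0.50) was left out, or control arrays 1 and 2 together (0.42). The 4 others that were higher at an unadjusted p under 0.05 were Jun (0.48), Atf3 (0.54), Fosb (0.31) and Fosl1 (0.29). Over all 122 measured pathway genes, 2 were higher and none was lower at the thresholds, and the median difference was 0.01, as over all clusters.

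**Figure D3:**
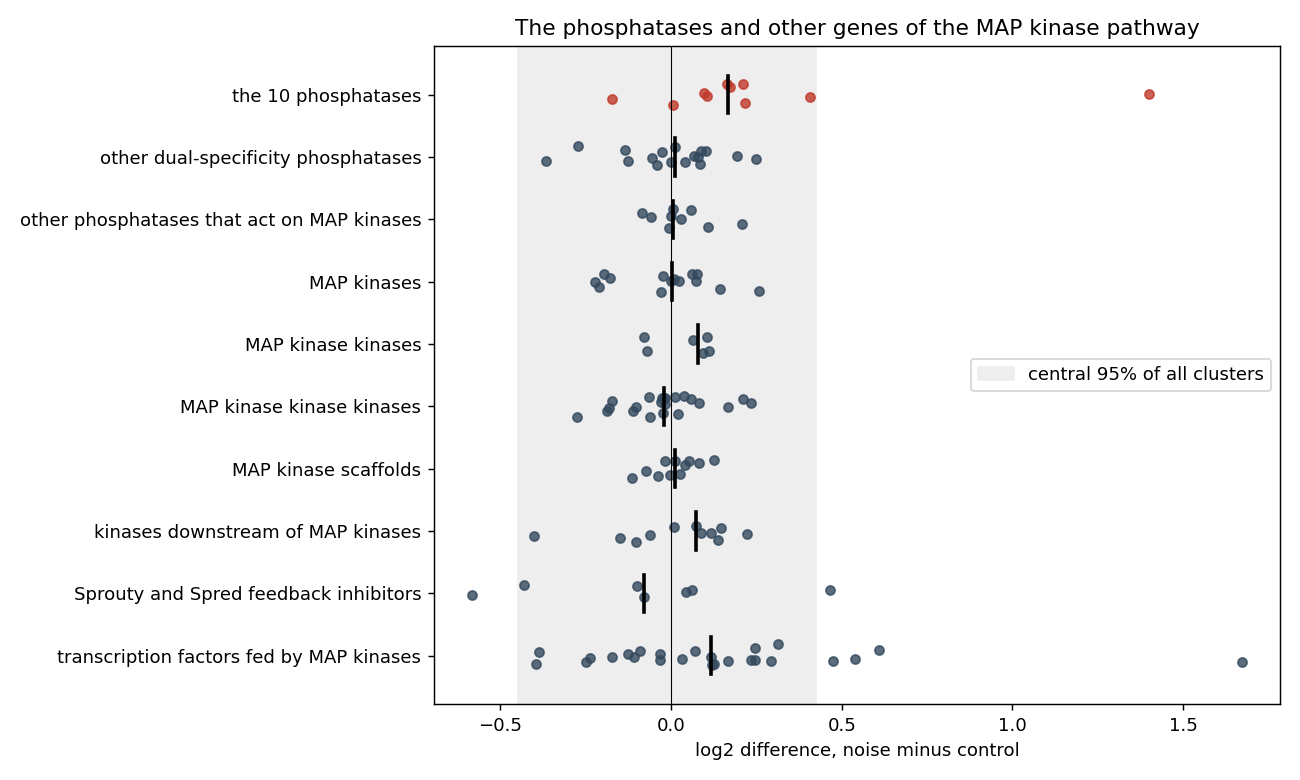
Log2 differences, noise minus control, of the 10 phosphatases (red, top) and of the genes of 9 other lists of the MAP kinase pathway (dark points), with the median of each list as a black line. The shaded band holds all clusters but the outer 2.5% at each end (-0.45 to 0.42); Dusp1 (1.40) and Fos (1.67) lie far to the right of it, and most other genes lie inside.

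The genes whose pattern was most like that of Dusp1 over the 6 arrays, by Pearson's r among clusters with 1 symbol, were Cers6 (0.998), Ddit4 (0.994), Fam193b (0.993), Ralgds (0.9897) and RGD1560523 (0.988). The 6 points fall into the noise and the control group, and the difference between the groups enters r. Ddit4, a stress-induced inhibitor of mTOR signaling, was at 6.90, 6.98 and 6.83 on the noise arrays, against 6.33, 6.42 and 6.22 on the control arrays. Like Dusp1, Ddit4 and the other genes named here were highest on noise array 3 and lowest on control array 6. They were picked by r over these same arrays, so nothing is read from the shared order. The log2 difference of Ddit4 was 0.58. Those of Cers6, a ceramide synthase, Fam193b, Ralgds, an exchange factor for Ral proteins, and RGD1560523 were 0.22, 0.25, 0.08 and 0.24.

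Signal from neighboring tissue differed between the groups and within the control group. Of 16 markers of the choroid plexus, the epithelium that makes cerebrospinal fluid, 11 were lower in the noise group at the thresholds and 0 were higher (limma, also 0 higher at an unadjusted p under 0.05), and with the methods' t-test 4 were lower and 0 higher. Their mean was 5.20, 5.10 and 5.40 on noise arrays 2, 3 and 4, against 7.58, 6.89 and 5.78 on control arrays 1, 2 and 6. The defining marker Ttr (transthyretin) was at 6.36, 5.09 and 7.47 on the noise arrays, against 11.7, 10.9 and 9.08 on the control arrays, and on noise array 3 it was close to the array median. Among the control arrays, number 6 had both the lowest choroid plexus mean and the lowest Dusp1. The noise group had the opposite order, with the lowest choroid plexus mean and the highest Dusp1 on noise array 3. Without control arrays 1 and 2 the difference of Dusp1 was 1.64 (standard error 0.20), that of Dusp10 0.38 and that of Dusp6 -0.23. In the same setting, which rests on 1 control pool, the differences of Egr1, Jun and Fos were 0.42, 0.63 and 1.68. Of 10 thalamus and 10 medial habenula markers, 4 and 3 were lower at the thresholds in the noise group and none was higher (0 higher also at an unadjusted p under 0.05 from limma and with the methods' t-test). The list means were 5.77 to 5.99 in the noise group against 6.01 to 6.70 in the control group for thalamus, and 5.07 to 5.23 against 5.47 to 5.66 for habenula. These marker lists hold genes that the study had already reported as lower on the same arrays. Among them are Kl and Slc4a5 (choroid plexus), Slitrk6 (thalamus), and Chrna3 and Slc5a7 (habenula). The counts of lower markers are therefore not independent of that report. The part of the neighboring tissue in the differences of the phosphatases was not tested. In whole tissue, fewer cells of a type and less RNA per cell cannot be told apart. Of 17 markers of hippocampal fields, 13 had a mean signal above the array median, which does not by itself show presence since probe sets differ in affinity. Their list means were 6.69 to 6.80 on the noise arrays and 6.73 to 6.83 on the control arrays. None of them passed the thresholds with limma or the methods' t-test, while at an unadjusted p under 0.05 from limma 3 were lower (Amigo2, Pcp4 and Bhlhe22). Of 7 endothelial markers, none passed with limma or the methods' t-test and 3 were lower (Cdh5, Slco1a2 and Abcb1a) at an unadjusted p under 0.05 from limma, with list means of 6.37 to 6.47 on the noise arrays and 6.55 to 6.63 on the control arrays. Of the measured markers of microglia (10), astrocytes (7), oligodendrocytes (7), excitatory neurons (6) and inhibitory neurons (6), none passed with limma or the methods' t-test, and C1qb was the 1 that was higher at an unadjusted p under 0.05 from limma.

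**Figure D4:**
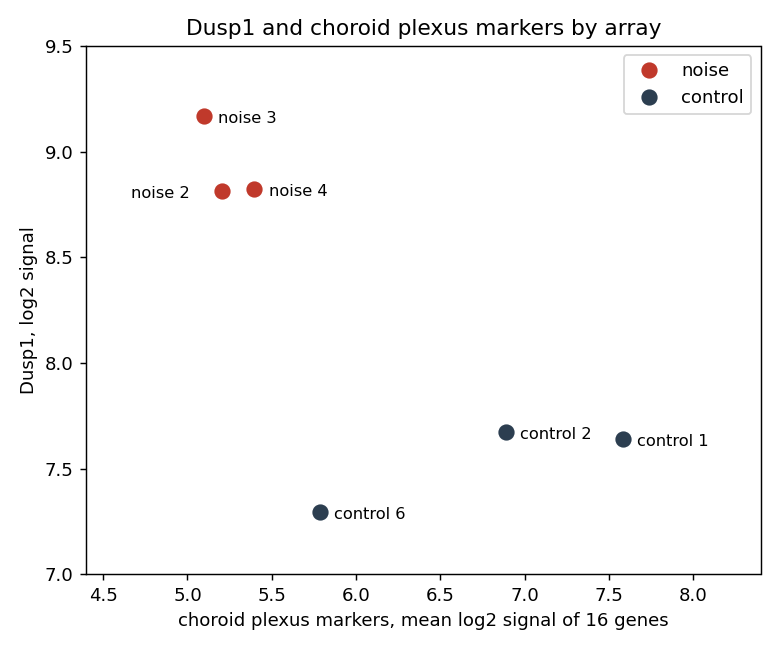
Dusp1 (vertical axis, log2 signal) against the mean log2 signal of 16 choroid plexus markers (horizontal axis) on each noise array (red) and control array (dark). The noise arrays lie at the upper left, with Dusp1 at 8.81 to 9.17. Control array 6, which is closest to them on the horizontal axis at 5.78, has the lowest Dusp1, 7.29. Noise array 3, the lowest on the horizontal axis at 5.10, has the highest Dusp1, 9.17.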

How the data were processed

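Tissue pools of 3 noise and 3 control samples were run on Affymetrix Rat Gene 2.0 ST arrays. The authors summarized the scans in GeneSpring GX by RMA (Robust Multi-Array Average, with its default settings), and the deposited log2 values were used unchanged. The series matrix holds the same values to within rounding. Columns with the authors' own comparison (a log ratio, a fold change and a p-value) and their group means were left aside. All arrays share a median of 5.05, and pairs of arrays correlated at 0.981 to 0.9905 across clusters. The number of arrays limits the precision.

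Groups were compared in limma 3.58.1 under R 4.3.3 (lmFit and eBayes, group as the only term, prior degrees of freedom 3.47), without a filter and with Benjamini-Hochberg adjustment over the 29489 clusters. The code was tested on simulated data. Permuting 3 against 3 arrays exactly (two-sided) gives no p under 0.1, so no such test was made. The p-values set the difference between the groups against the spread between pools, which limma draws toward the spread typical of all clusters. The members and lists were chosen with earlier results of these data known. Of 228 listed genes, 216 were found under their symbol, 2 under a synonym, and 10 were not found. The genes named are the 10 phosphatases, from each pathway list those past the thresholds and the 2 largest differences, and the 5 patterns most like Dusp1. Dusp9, Dusp21, Spry3, other transcription factors, and the hippocampal and endothelial markers and C1qb, were named after their values were seen. The alternatives tried changed the value table, normalization, variance model, array weights, test, filter on dim clusters, arrays, or cluster per gene. Promoter sequences are from RefSeq (GRCr8).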

Additional observations from a re-analysis of the deposited data

How the results depend on the processing

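Of the 10 phosphatases, Dusp1 was the 1 that was higher at the thresholds under every alternative run, and none of the 10 was lower. Its difference was 1.28 to 1.47 when each array was left out in turn and 1.64 without control arrays 1 and 2. With the dimmer cluster of Dusp14, at -0.23, 2 phosphatases had every noise array below every control array, beside 8.06% of all clusters. The number with every noise array above every control array was 4 to 6 when arrays were left out in turn, beside 13.1% to 15.9% of all clusters. Fos passed the thresholds under every alternative run.

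The count of pathway genes that were higher was 1 (Fos) with array weights and 1 to 4 when arrays were left out in turn. It was 4 (Fos, Egr1, Spry1 and Atf3) without noise array 4, and 1 (Fos) when control array 1, when control array 2 or when noise array 3 was left out. The count that were lower was 1 (Spry2) with array weights, 0 to 1 when arrays were left out in turn and 2 (Spry2 and Dusp11) without control arrays 1 and 2, where the 2 higher were Fos and Jun. Over all clusters, 100 were higher and 151 lower with the methods' t-test, and 56 and 89 among the brighter clusters, of which fewer were tested. When arrays were left out in turn, 180 to 322 were higher and 247 to 405 lower, most without noise array 4. Without control arrays 1 and 2, 307 were higher, with the lone control array assumed to vary like the noise arrays. At an adjusted p under 0.05, 10 clusters were higher and 2 lower with the robust variance that follows the signal level, 8 and 3 among the brighter clusters, 0 and 0 with the methods' t-test, and 0 to 1 in each direction when arrays were left out in turn. The adjusted p of Fos was 0.0041 to 0.952 over the alternatives. The causes were not tested. No paired analysis was made, because the groups were pools of different rats and the sample titles mark no pairs.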
